A study of Homo sapiens with 6 samples.

Results

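Replication-dependent histone genes were followed in AGS, an established cell line from a human gastric adenocarcinoma, with and without indomethacin, a non-steroidal anti-inflammatory drug that inhibits cyclooxygenases. The genes were taken from a list of 42 symbols, each matched to its Ensembl identifier in the count tables, out of 60604 genes in all. The list holds 4 genes of the linker histone H1, 10 of H2A, 9 of H2B, 9 of H3 and 10 of H4. On build hg38, 41 of them lie on chromosome 6 and 1, H2AC20, lies on chromosome 1. Total RNA was sequenced in 6 libraries. The 3 control libraries are labelled with 0 mM indomethacin and no time, and the other 3 come from cells given 0.5 mM indomethacin for 24 h. Whether the 3 libraries of a group stem from different cultures is not stated in the labels; p-values therefore measure library-to-library spread, and this may be technical.

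The core histones H2A, H2B, H3 and H4 form the particle that DNA wraps around, and the linker histone H1 binds where DNA enters and leaves it. Replication-dependent histone genes are transcribed mainly in S phase, when newly copied DNA has to be packed, and their mRNA is degraded when DNA synthesis stops. Most have no introns, stand in clusters, and give mRNAs that end in a short stem-loop in place of a poly(A) tail; the stem-loop is bound by SLBP, the stem-loop binding protein. These libraries were made by removing ribosomal RNA, not by selecting poly(A) tails, so that mRNA without a tail was also read.

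The stem-loop is shown here because it is the feature that sets these mRNAs apart. It was searched in GENCODE 29 transcripts as a stem of 6 paired bases that starts with GG and ends with CC, around a loop of 4 bases that starts with TTT. It was present in 57 of 19684 protein-coding genes (0.290%), of which 28 were histone genes of the clusters. Of the 40 listed genes with a coding transcript there, 14 had it after the stop codon. Many of the other models end at or near the stop codon, so the search could not see their 3′ ends, and the 14 are no measure of how many have it. The form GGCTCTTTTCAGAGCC occurred in 6 genes, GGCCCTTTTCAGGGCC in 4, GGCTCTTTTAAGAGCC in 3 and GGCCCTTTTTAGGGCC in 1, H4C9. One or more examples of each form, 5′ to 3′ as DNA with the stem-loop in capitals, are:
H2AC13: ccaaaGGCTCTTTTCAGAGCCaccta
H2AC6: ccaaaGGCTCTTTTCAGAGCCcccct
H2BC7: ccaaaGGCTCTTTTAAGAGCCaccca
H3C8: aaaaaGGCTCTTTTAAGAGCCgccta
H4C8: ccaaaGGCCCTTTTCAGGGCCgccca
H4C11: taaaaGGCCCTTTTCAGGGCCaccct
H4C9: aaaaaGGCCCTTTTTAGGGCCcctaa

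Libraries held 17535435 to 23221077 counts each. A count of 0 allows a level of up to 0.129 to 0.171 CPM, that of 3 counts over the total counts of a library, without the scaling used for levels. Levels are given as CPM, which are counts divided by TMM-scaled library sizes, and fold changes as log2 of indomethacin over control. The mitochondrial genome took 22.8% to 26.8% of counts in the control libraries and 16.7% to 19.7% in the indomethacin libraries. Summed levels of 5 epithelial markers (EPCAM, KRT8, KRT18, KRT19 and CLDN4) were 3230 to 3724 CPM in the control and 2887 to 3197 CPM in the indomethacin libraries. Those of 8 leukocyte, fibroblast and endothelial markers were 4.88 to 7.12 CPM against 9.67 to 11.9 CPM, and 0.610 to 0.981 against 0.421 to 0.856 CPM without COL1A1, so that the markers of other cells other than COL1A1 were near the floor in both groups. Their part in the results was not tested.

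Replication-dependent histone mRNA was several-fold lower after indomethacin in every class. The listed genes together held 0.702%, 0.831% and 0.702% of counts in control libraries, against 0.145%, 0.168% and 0.176% after indomethacin. Of the 42 genes, 40 had enough counts to be tested, and 38 of these fell and 0 rose by edgeR's quasi-likelihood test at an adjusted p under 0.05. None rose at an unadjusted p under 0.05 either, nor with DESeq2 or limma-voom. In the same fit 31.0% of all 17200 genes tested were called lower and 30.6% higher, 61.6% in either direction. The median log2 fold change was -2.39 over the 40 genes and 0.04 over all genes tested. A level at least 4-fold lower was found for 25 of the 40, against 5.38% of all genes tested, and one at least 8-fold lower for 13, against 2.04%. The 3 indomethacin libraries lay below the 3 control libraries without overlap for 39 of the 40, against 33.3% of all genes tested. The genes not called were H2AC17 and H3C1, and those with too few counts were H3C4 and H4C6. In bulk RNA, fewer cells that make histone mRNA and less of it per cell cannot be told apart.

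**Figure D1:**
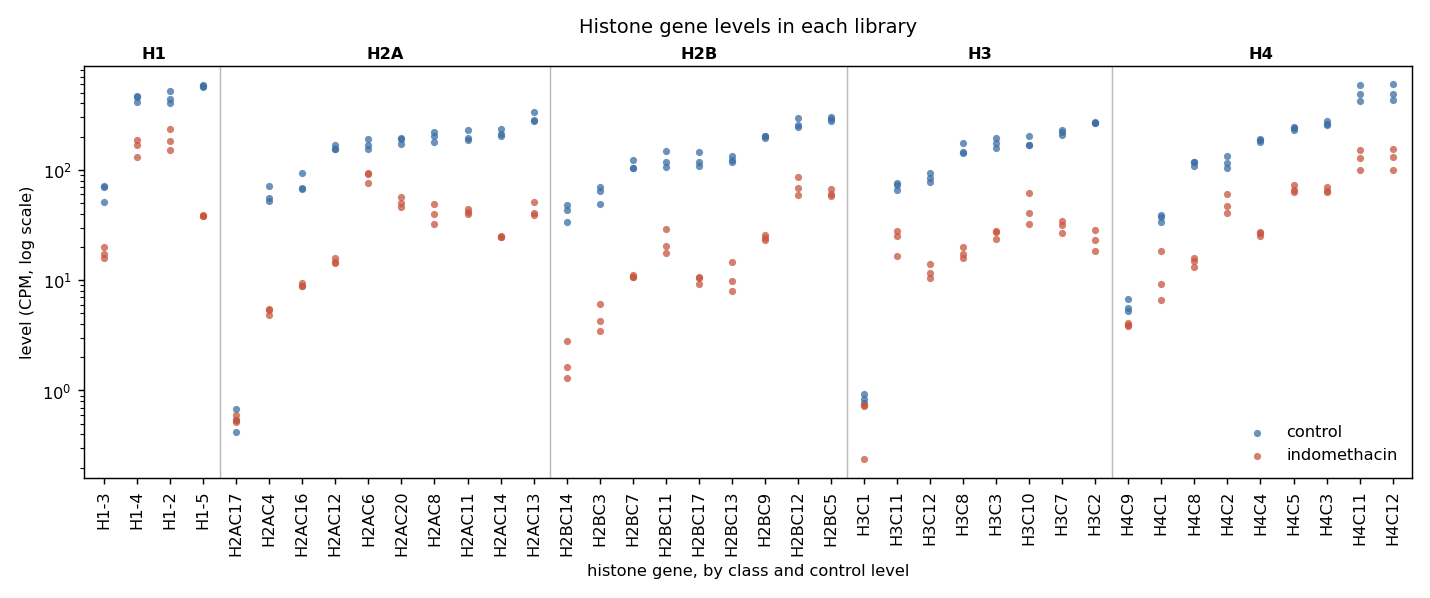
Level of each histone gene tested (CPM, log axis) in the 3 control (blue) and 3 indomethacin (red) libraries, ordered by class and control level. In 39 of 40 genes the red points lie below all blue points, and in H2AC17, near 0.5 CPM, they mix.

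The 4 H1 genes, which encode the linker histones, all fell, with a median log2 fold change of -1.65 and a wide range. H1-5 (ENSG00000184357, chr6:27866792-27867588, minus strand) stood at 583, 572 and 559 CPM in control libraries, against 38.1, 37.8 and 39.4 CPM after indomethacin. The groups were far apart and the spread within each was small. Its mean went from 571 ± 11.9 to 38.4 ± 0.817 CPM (SD, n = 3), which is 14.9-fold lower (log2 fold change -3.89, SE 0.11, adjusted p = 3.8e-11). H1-2 (ENSG00000187837, chr6:26055740-26056470, minus strand) went from 401, 520 and 438 CPM to 150, 184 and 236 CPM. Its groups did not overlap either, but the fall was smaller, from 453 ± 60.8 CPM down to 190 ± 43.1 CPM, or 2.39-fold (log2 fold change -1.25, SE 0.16, adjusted p = 9.2e-06). H1-4 was 2.74-fold lower (458, 466 and 410 CPM against 131, 167 and 188 CPM, log2 fold change -1.46) and H1-3 was 3.61-fold lower (70.1, 71.5 and 50.6 CPM against 15.9, 17.4 and 20 CPM, log2 fold change -1.85). Per kilobase of gene model, H1-5 was the highest of the 4 in control libraries, at 717 CPM per kb beside 619 for H1-2 and 565 for H1-4. After indomethacin H1-2 stood at 260 CPM per kb, H1-4 at 206 and H1-5 at 48.2. The ratio of H1-5 to H1-2 levels accordingly went from between 1.10 and 1.45 in control libraries to between 0.167 and 0.254 in indomethacin libraries. That of H1-5 to H1-4 went from between 1.23 and 1.36 to between 0.209 and 0.290. These pairs, and those of the ratios given for the other classes below, were taken because they differed. The ratios are therefore a description and carry no test.

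Of the 10 H2A genes, 9 fell and H2AC17 did not pass the test; the median of the 10 was -2.55. H2AC4 (chr6:26033092-26033618, minus strand) stood at 51.9, 70.6 and 55.0 CPM in control libraries and at 4.85, 5.42 and 5.41 CPM after indomethacin. It had the largest fall of the class, from 59.2 ± 10.0 CPM down to 5.23 ± 0.327 CPM, or 11.3-fold (log2 fold change -3.50, SE 0.15, adjusted p = 5.1e-10). H2AC13 (chr6:27808199-27808701, plus strand), the highest of the class per kilobase over the 6 libraries, stood at 279, 338 and 285 CPM and fell to 40.8, 39.1 and 51.3 CPM. That is 6.88-fold lower (log2 fold change -2.78, SE 0.13, adjusted p = 1.2e-09), from 597 to 86.9 CPM per kb. H2AC12 was 10.5-fold lower, at 155, 168 and 153 CPM against 14.7, 14.4 and 16 CPM. H2AC6 (chr6:26124145-26139116, plus strand) had the smallest fall among those called. It stood at 167, 189 and 154 CPM in control and at 76.4, 91.3 and 93.8 CPM in indomethacin libraries, 1.95-fold lower with no overlap (log2 fold change -0.96, SE 0.12, adjusted p = 7.8e-06). Its gene model runs 1114 bases past the stem-loop shown above, so reads of a longer transcript also count for it. This is not particular to H2AC6. The models of H2BC9, H3C8 and H4C5 run 1640, 1518 and 1022 bases past theirs, with log2 fold changes of -3.04, -3.13 and -1.83. The part of such reads in the values was not tested. The ratio of H2AC4 to H2AC6 went from between 0.310 and 0.375 to between 0.0577 and 0.0634. H2AC20 (chr1:149886918-149887411, plus strand), which lies apart from the others, stood at 191, 194 and 170 CPM and fell to 50.2, 56.7 and 46.1 CPM, 3.62-fold lower (log2 fold change -1.86, SE 0.11, adjusted p = 1.0e-08). The log2 fold changes of H2AC14, H2AC16, H2AC8 and H2AC11 were -3.11, -3.09, -2.31 and -2.30.

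H2AC17 (chr6:27892699-27893185, minus strand) was barely detected, at 0.539, 0.682 and 0.422 CPM in control libraries and 0.523, 0.597 and 0.541 CPM after indomethacin. The groups overlapped, with a log2 fold change of 0.01 (SE 0.40, adjusted p = 0.99). These values rest on 9 to 16 counts per library, and 346 of the 487 bases of its model overlap H3C12 on the same strand, so that how reads there were assigned bears on its count.

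The 9 H2B genes fell together, with the lowest median of the 5 classes, -3.35. H2BC14 (chr6:27815022-27815489, plus strand) had the largest fall of any listed gene. It stood at 43.3, 47.8 and 33.9 CPM in control libraries and at 1.62, 1.29 and 2.82 CPM after indomethacin. The mean went from 41.6 ± 7.09 to 1.91 ± 0.807 CPM, 22.2-fold lower (log2 fold change -4.47, SE 0.23, adjusted p = 2.0e-09). H2BC12 (chr6:27146361-27146855, minus strand), the highest of the class per kilobase, had its smallest fall. Its levels were 246, 292 and 254 CPM against 59.5, 69.1 and 86.6 CPM, 3.69-fold lower (log2 fold change -1.88, SE 0.14, adjusted p = 6.2e-08). The ratio of H2BC14 to H2BC12 went from between 0.133 and 0.176 to between 0.0187 and 0.0326. H2BC3, H2BC17, H2BC13, H2BC7 and H2BC9 had log2 fold changes of -3.76, -3.62, -3.54, -3.35 and -3.04, and H2BC11 and H2BC5 of -2.47 and -2.23. In each of these 7 genes the indomethacin libraries lay below the control libraries.

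Of the 9 H3 genes, 8 were tested and 7 of them fell, with a median of -2.79 over the 8. H3C2 (chr6:26031589-26032099, minus strand), both the highest of the class per kilobase and the one with the largest fall, stood at 269, 272 and 265 CPM. After indomethacin it stood at 18.3, 23.0 and 28.8 CPM, 11.5-fold lower (log2 fold change -3.53, SE 0.15, adjusted p = 4.9e-10). H3C8, H3C7, H3C12, H3C3 and H3C10 followed, with log2 fold changes of -3.13, -2.84, -2.84, -2.74 and -2.0. H3C11 fell least among those called, from 65.7, 76.7 and 73.5 CPM to 16.5, 27.6 and 25.2 CPM (log2 fold change -1.64). The ratio of H3C2 to H3C11 went from between 3.55 and 4.09 to between 0.833 and 1.14. H3C1 (chr6:26020451-26020958, plus strand) was at the edge of detection, with 0.834, 0.768 and 0.938 CPM in control libraries and 0.238, 0.746 and 0.721 CPM after indomethacin. The indomethacin values lay below the control values, 1 of them well below and the others close to the lowest control, and the difference did not pass the test (log2 fold change -0.59, SE 0.44, adjusted p = 0.26). H3C4 was not tested, as it had 0 to 2 counts per library, under the floor of 3 counts. Of the 503 bases of its model, 486 overlap the unnamed gene ENSG00000282988 on the same strand.

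Of the 10 H4 genes, which encode histone H4, 9 were tested and all 9 fell, with a median of -1.97. H4C12 (chr6:27831174-27831560, minus strand) was the highest listed gene per kilobase, at 1303 CPM per kb in control and 331 in indomethacin libraries. Its levels were 427, 595 and 490 CPM against 100, 130 and 154 CPM, 3.94-fold lower (log2 fold change -1.98, SE 0.16, adjusted p = 1.8e-07). H4C11 had counts within 1.10% to 2.37% of those of H4C12 in every library (417, 584 and 485 CPM against 99.0, 128 and 152 CPM). The coding sequences of these genes are 100% identical in GENCODE 29, so reads of one cannot be told from reads of the other there. H4C8 (chr6:26277609-26285638, minus strand) had the largest fall of the class, from 118, 118 and 108 CPM to 13.2, 14.8 and 15.9 CPM, 7.86-fold lower (log2 fold change -2.97, SE 0.12, adjusted p = 2.4e-10). H4C4, H4C3, H4C5, H4C1 and H4C2 had log2 fold changes of -2.81, -2.01, -1.83, -1.70 and -1.25. The ratio of H4C8 to H4C2 went from between 0.887 and 1.13 to between 0.260 and 0.327.

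H4C9 (chr6:27138588-27139881, plus strand) had the smallest fall of all listed genes called. It stood at 5.25, 5.63 and 6.71 CPM in control libraries and at 3.8, 4.13 and 3.91 CPM after indomethacin, without overlap. This was 1.49-fold lower (log2 fold change -0.57, SE 0.19, adjusted p = 0.020). The call was lost with upper-quartile scaling (log2 fold change -0.45, adjusted p = 0.054) and without control replicate 3 (-0.50, adjusted p = 0.071). H4C6 was not tested, with 0 or 1 count per library.

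**Figure D2:**
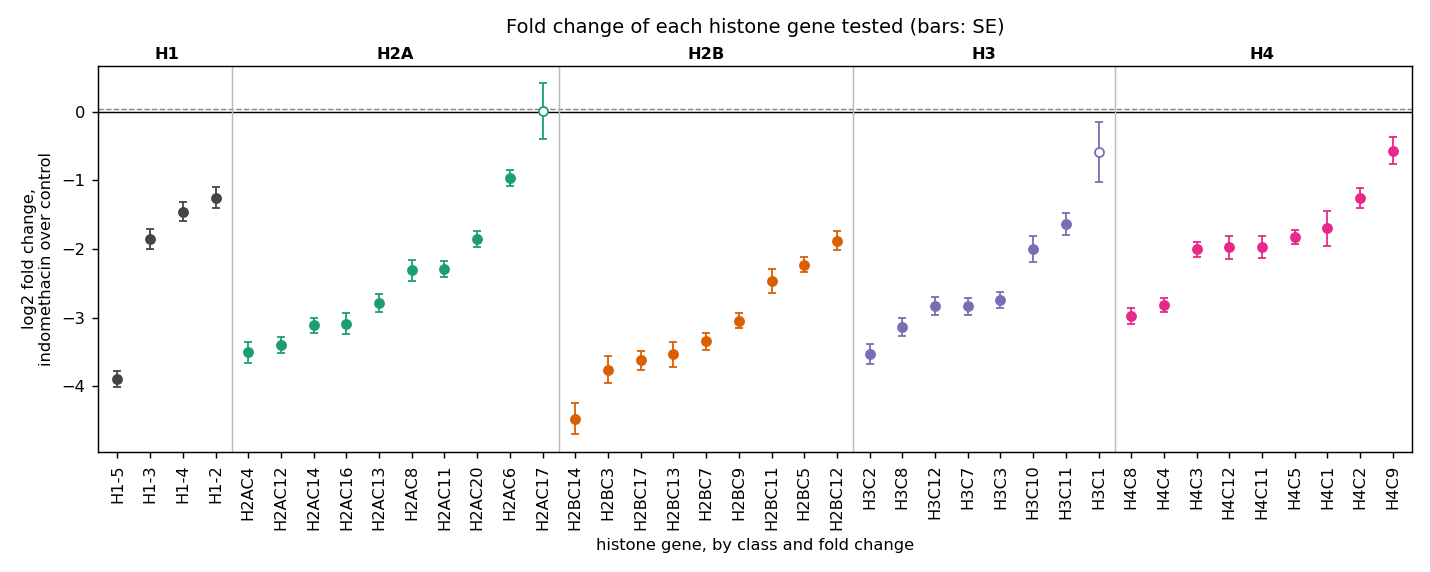
Log2 fold change (indomethacin over control, bars SE) of each histone gene tested, by class; open symbols did not pass the test and the dashed line is the median of all genes, 0.04. H2BC14 lies lowest at -4.47, and H2AC17 and H3C1 are the open symbols.

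Summed over the listed genes of a class, H1 went from 1512, 1629 and 1458 CPM in control libraries to 335, 405 and 483 CPM in indomethacin libraries, a mean 3.76-fold lower. H2A went from 1510, 1737 and 1459 CPM to 293, 323 and 339 CPM, 4.93-fold lower. H2B went from 1278, 1464 and 1272 CPM to 197, 205 and 252 CPM, 6.13-fold lower. In each of these classes the groups were far apart. H3 went from 1110, 1246 and 1112 CPM to 146, 178 and 212 CPM, 6.47-fold lower. H4 went from 1816, 2155 and 1920 CPM to 414, 498 and 568 CPM, 3.98-fold lower, and 4.0-fold with H4C12 left out. Both H4C11 and H4C12 are counted in H4 here and in the shares below. Their counts differed with a chi-square of 6.19 over 6 libraries. Whether reads were counted in both genes or split between them is therefore not settled. If they were split, leaving out H4C12 takes away a part of H4, and the order of the classes given next changes for that reason. With H4C12 left out the H4 mean was 1459 CPM in control libraries, below H1 (1533) and H2A (1569). In indomethacin libraries it was 365 CPM, below H1 (408) and above H2A (318). Histone genes outside the list are not in these sums, among them H2BC18, H3C14 and H4C14, with control means of 350, 414 and 709 CPM. The sums and shares therefore do not stand for whole classes. Within the listed genes, H2B and H3 made up less of the summed counts after indomethacin, and H1 and H4 more. H2B held 17.7% ± 0.0889 (SD, n = 3) of them in control and 13.5% ± 0.736 in indomethacin libraries, and H3 15.3% ± 0.142 and 11% ± 0.458. The share of H1 went from 20.3% ± 0.577 to 25.1% ± 0.924 and that of H4 from 26% ± 0.753 to 30.5% ± 0.538. In these 4 classes the ranges of the groups did not overlap. H2A held 20.2% to 21.1% and 18.3% to 21.2%, with overlap.

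**Figure D3:**
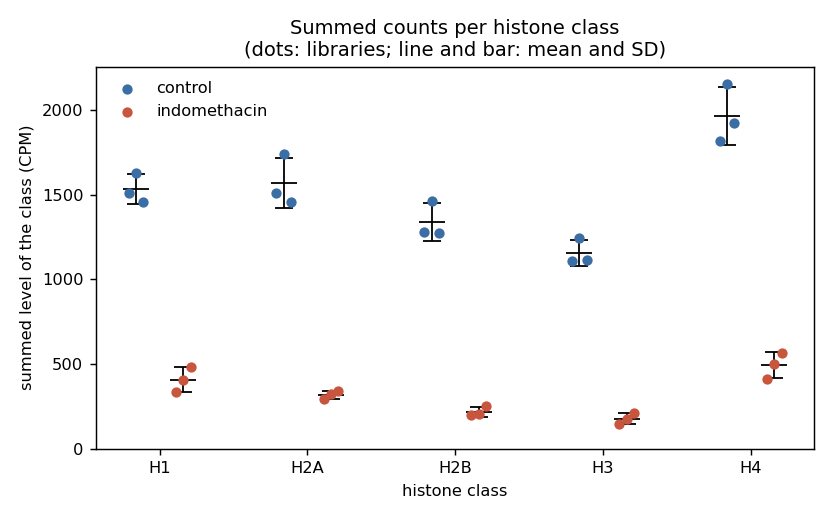
Summed level of the listed genes of each histone class (CPM, axis from 0) in each library, with group mean and SD. With both H4C11 and H4C12 counted, H4 stands highest in both groups. Every indomethacin library lies below every control library in all 5 classes.

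The indomethacin libraries also differed among themselves in histone level. Summed over the 42 genes they held 1385, 1611 and 1855 CPM in replicates 1, 2 and 3, and the control libraries 7226, 8231 and 7221 CPM. Of the 38 genes that fell, indomethacin replicate 3 was the highest of its group in 29 and replicate 1 the lowest in 26, and control replicate 2 was the highest of its group in 32. The indomethacin libraries lay close together for H1-5 (given above) and H2AC14 (24.8, 25.3 and 24.7 CPM) and further apart for H4C1 (6.56, 9.30 and 18.3 CPM). H2AC14 and H4C1 were chosen for this after their values were seen.

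Along chromosome 6 the genes fell into 3 runs, taken as stretches with no gap over 200 kb between neighbouring listed genes. The first, chr6:26020451-26285638, spans 265 kb and holds 23 genes, of which 21 were tested and 20 fell, with a median log2 fold change of -2.31. The second, chr6:27125897-27147562, holds 5 genes in 21.7 kb, which all fell, with a median of -2.30. The third, chr6:27807444-27893891, holds 13 genes in 86.4 kb, of which 12 fell, with a median of -2.84. Values within a run ranged widely, from -0.59 to -3.76 in the first, from -0.57 to -3.40 in the second and from 0.01 to -4.47 in the third. Within the first run 5 genes that are not histone genes of the lists were tested. HFE, a regulator of iron uptake, fell (log2 fold change -2.03), as did the histone pseudogene H2AC10P (-1.43). The histone pseudogene H2AC5P had a log2 fold change of 0.65 and did not pass the test (adjusted p = 0.19). The unnamed genes ENSG00000283064 and ENSG00000282988 rose (2.63 and 1.5). Their models share exon bases with histone genes, so how reads there were assigned bears on their counts. ENSG00000282988 overlaps H3C4 over 486 bases and H2AC7 over 435 bases on the same strand. ENSG00000283064 overlaps H2BC6 over 730 bases on the opposite strand. These 5 were named after their values were seen, and the second and the third run held no such gene with enough counts.

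**Figure D4:**
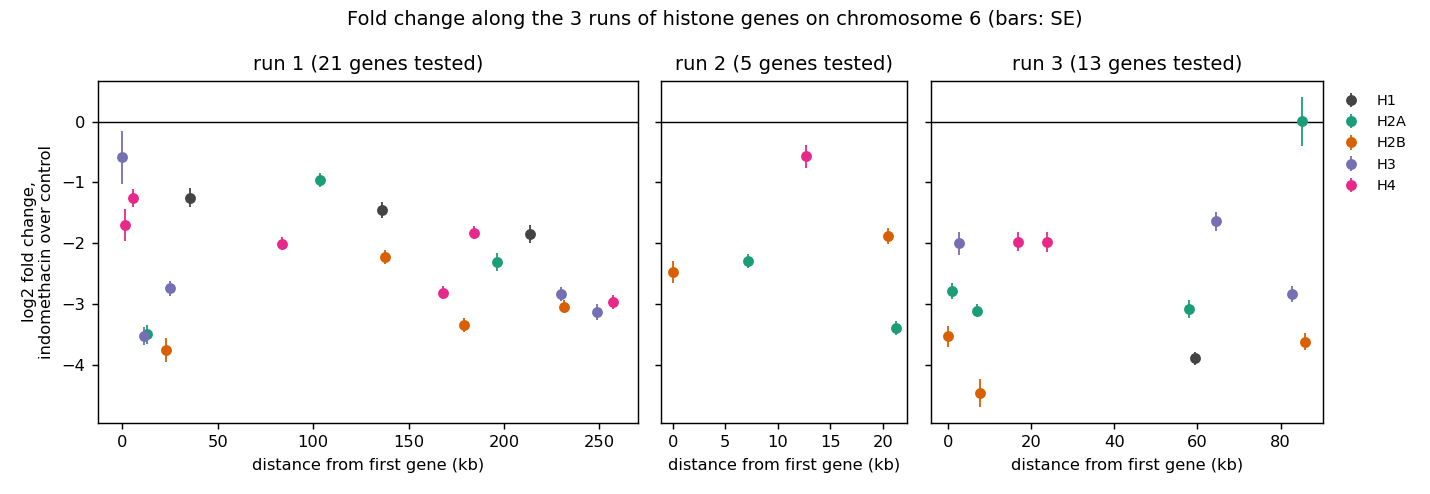
Log2 fold change (bars SE) of the listed genes against their distance in kb from the first gene of each of the 3 runs on chromosome 6, coloured by class. In the third run H2AC17 at 0.01 and H2BC17 at -3.62 lie next to each other, and genes of every run lie between -2 and -3.

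H2A and H2B genes often stand head to head and share the short stretch between their starts. With starts no more than 1000 bases apart, on opposite strands, such pairs were set side by side. The partners H2BC11 and H2AC11, 247 bases apart, had like log2 fold changes (-2.47 and -2.30), as had H2BC8 and H2AC8 (283 bases, -2.28 and -2.31) and H2BC21 and H2AC20 on chromosome 1 (266 bases, -1.97 and -1.86). Others differed. H2BC12 and H2AC12, 251 bases apart, had log2 fold changes of -1.88 and -3.40, and H2BC4 and H2AC6, 219 bases apart, of -2.31 and -0.96. H2AC14 and H2BC14, 245 bases apart, had -3.11 and -4.47, with 215 and 41.6 CPM in control libraries, and H2BC13 and H2AC13, 268 bases apart, -3.54 and -2.78. H2BC17 stood 240 bases from H2AC17: it fell 12.3-fold, from 108, 146 and 117 CPM to 10.5, 9.15 and 10.6 CPM (log2 fold change -3.62), while H2AC17 was barely detected in either group. The limit on the count of H2AC17 given above holds here too. H3C12, 319 bases from H2BC17, also fell (-2.84).

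Promoters were compared because these genes moved together. RefSeq windows on GRCh38.p14, from 250 bases before to 50 after the start, were matched for 37 of the 42 genes and searched on both strands. TATAAA, the core of the TATA box, occurred in 26 of the 37 (70.3%), against 11.5% of all 35116 windows in the table. On the gene's own strand before the start it occurred in 22, and in each of these its nearest match began 27 to 32 bases before the start. CCAAT, the box bound by NF-Y, occurred in 31 (83.8%), against 34.6% of all windows: in each H1, H2A, H2B and H3 window and in 2 of 8 of H4. TTTGCAT, part of the octamer bound by POU2F1 and searched after the values were seen, occurred in 16 (43.2%), against 4.46%: in 8 of 9 H2A, 7 of 9 H2B, 1 of 7 H3 and 0 of the H1 and H4 windows. The H3 match was in a window listed for H3C4, chr6:26199244-26199543, that covers the start of H2BC7. The window at the start of the H3C4 model, chr6:26197237-26197536, had no match. No overlap of these motifs with each other was removed, and a match is a description, not a site. Windows of head-to-head partners, such as H2AC11 and H2BC11, cover largely the same bases, so the same match can count for both genes. The 25 tested genes with TATAAA on either strand had a median log2 fold change of -2.30 and the 10 without of -3.01. The 25 include H2AC8, H2BC14 and H2BC17, whose match is on the opposite strand only, so this is no split by a TATA box of the gene's own. For CCAAT the medians were -2.74 in 29 genes with and -1.97 in 6 without, and for TTTGCAT -3.04 in 15 with and -2.12 in 20 without. These motifs go with class, so the medians are not independent of it.

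The 250 bases before the start are shown for genes that mark the range of the response, 5′ to 3′ on the gene's own strand, with the 3 motifs in capitals on either strand. H1-5 (chr6:27867589-27867838, minus strand) and H2BC14 (chr6:27814772-27815021, plus strand) had the largest falls. H2BC17 (chr6:27893175-27893424, plus strand) covers the stretch shared with the barely detected H2AC17, and H2AC6 (chr6:26123922-26124171, plus strand) had the smallest fall called in H2A. H4C11 (chr6:27823842-27824091, plus strand) is an H4 gene with TATAAA and without CCAAT.
H1-5: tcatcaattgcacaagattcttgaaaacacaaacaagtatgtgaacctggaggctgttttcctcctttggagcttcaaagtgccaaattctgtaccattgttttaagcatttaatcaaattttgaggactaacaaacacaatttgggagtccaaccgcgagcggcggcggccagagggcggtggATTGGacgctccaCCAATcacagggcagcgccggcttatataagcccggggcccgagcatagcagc
H2BC14: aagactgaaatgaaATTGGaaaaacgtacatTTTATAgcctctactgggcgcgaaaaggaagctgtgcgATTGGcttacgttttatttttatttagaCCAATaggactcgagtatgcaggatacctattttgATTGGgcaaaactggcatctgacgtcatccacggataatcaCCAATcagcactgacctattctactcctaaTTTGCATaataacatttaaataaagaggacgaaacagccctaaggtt
H2BC17: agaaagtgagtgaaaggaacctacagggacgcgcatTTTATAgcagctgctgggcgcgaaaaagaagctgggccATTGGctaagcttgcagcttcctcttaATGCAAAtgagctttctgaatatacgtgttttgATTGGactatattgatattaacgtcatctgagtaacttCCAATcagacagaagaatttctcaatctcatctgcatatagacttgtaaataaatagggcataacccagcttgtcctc
H2AC6: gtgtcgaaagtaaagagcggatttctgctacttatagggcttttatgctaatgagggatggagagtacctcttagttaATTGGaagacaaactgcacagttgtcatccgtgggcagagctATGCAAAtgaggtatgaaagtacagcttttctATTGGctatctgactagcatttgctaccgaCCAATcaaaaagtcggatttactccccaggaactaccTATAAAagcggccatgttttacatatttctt
H4C11: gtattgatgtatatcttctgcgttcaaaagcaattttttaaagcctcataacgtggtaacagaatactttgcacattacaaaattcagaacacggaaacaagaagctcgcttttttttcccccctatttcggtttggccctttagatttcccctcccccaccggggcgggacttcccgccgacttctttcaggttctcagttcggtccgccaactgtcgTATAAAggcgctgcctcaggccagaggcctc
In the stretches of H2BC14 and H2BC17 the TATAAA match lies on the opposite strand, near the start of the partner H2AC14 or H2AC17, and neither has one on its own strand.

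Histone genes of a class have similar coding sequences, and where these are the same over the length of a read they bear on how reads were assigned. Between coding sequences of equal length in GENCODE 29, identity was 83.2% to 92.6% within H2A, 85.6% to 93.7% within H2B, 82.5% to 88.1% within H3 and 79.8% to 100% within H4. The length of 100 bases used next was a choice, the read length is not given here, and shorter stretches could be shared by more genes. Of 40 genes with a coding sequence there, 32 shared no stretch of 100 bases with a transcript of another gene. Of these, 31 were tested and 30 fell, with a median log2 fold change of -2.47. Apart from H4C11 and H4C12, stretches were shared by H3C4 (100% of its 100-base stretches), H2AC17 (84.0%), H2AC14 (80.9%), H2AC13 (79.3%), H2BC12 (28.4%) and H2AC20 (17.2%), whose own values are uncertain to that extent. Gene models over 800 bases, which count more sequence than the short histone mRNA, were those of 13 genes, all tested, with a median log2 fold change of -2.30. The 27 tested genes with shorter models had a median of -2.74.

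Other histone genes that are not among the 42, most of them from the histone clusters, mostly moved in the same direction. This list of other genes of the clusters also holds H4C16 on chromosome 12 and H2BC12L on chromosome 21, both called lower. Of 29 listed, 18 were tested, 17 fell and 0 rose (0 also at an unadjusted p under 0.05 and with DESeq2 or limma-voom), with a median of -2.29. The shares over all genes tested were 31.0% lower and 30.6% higher. H3C14 and H3C15 on chromosome 1 went from 414 ± 47.2 to 46.8 ± 0.468 CPM and from 413 ± 46.8 to 46.8 ± 0.525 CPM (log2 fold changes -3.15 and -3.14). Their counts differed by 0.0662% to 0.534% per library, with a chi-square of 0.0735 over 6 libraries, less than counting noise between separate reads would give, so they stand for 1 measurement. The counts of H4C14 and H4C15 differed by 0.0559% to 0.274%, with a chi-square of 0.0523, so both pairs are counted double in the 17 and in the median. H4C13 (-2.53) and H2BC18 (350 ± 26.9 to 63.9 ± 4.62 CPM, -2.45) also fell. H1-6, the testis linker histone, stood at 0.687, 0.682 and 0.563 CPM in control and at 1.09, 0.298 and 0.901 CPM in indomethacin libraries, with overlap (log2 fold change 0.24, adjusted p = 0.67). H2AC15 had no count, and H2AC18 and H2AC19 were not analysed here.

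Replication-independent histone variants, made outside S phase as well and mostly from mRNAs with poly(A) tails, moved in both directions: of 12 tested, 6 fell, 2 rose and 4 did not pass the test, with a median of -0.36. Of all genes tested, 31.0% were called lower and 30.6% higher. CENPA, the H3 variant of centromeres, stood at 20.9, 21.7 and 22.3 CPM and fell to 3.52, 2.78 and 3.73 CPM (log2 fold change -2.70, adjusted p = 6.4e-09). H2AZ2 fell from 100.3 ± 4.81 to 24.9 ± 3.27 CPM (-2.01) and H2AZ1, its paralog, from 262 ± 11.9 to 115 ± 4.98 CPM (-1.18). H2AX, the H2A form phosphorylated at DNA breaks, went from 38.2 ± 4.64 to 20.4 ± 4.21 CPM (-0.90, adjusted p = 1.3e-04). H3-3A and H3-3B encode the same protein, H3.3. H3-3A fell from 345, 329 and 365 CPM to 145, 139 and 126 CPM (-1.34, adjusted p = 1.2e-07), whereas H3-3B stood at 359, 310 and 316 CPM against 265, 291 and 341 CPM (-0.13, adjusted p = 0.34). The linker variant H1-10 rose from 17.6, 20.1 and 21.4 CPM to 25.7, 45.8 and 35 CPM (0.85), and MACROH2A2 went from 1.72, 1.19 and 1.78 CPM to 4.09, 1.74 and 2.52 CPM, called higher although its groups overlapped (0.84, adjusted p = 0.044). The number called higher was 3 with upper-quartile factors, and 1 with limma-voom, with no filter, and without any 1 of control replicates 1, 2 and 3 and indomethacin replicates 1 and 3.

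Factors that make and process histone mRNA also moved in both directions. Of 26 listed, 25 were tested, 12 fell, 5 rose and 8 did not pass the test, with a median of -0.24, beside the 31.0% lower and 30.6% higher of all genes tested. SLBP, which binds the stem-loop and carries the mRNA through processing and translation, stood at 71.9, 58.2 and 69.4 CPM and fell to 36.4, 40.5 and 52.8 CPM (log2 fold change -0.62, SE 0.14, adjusted p = 0.0015). NPAT, the coactivator of histone gene transcription, stood at 40.1, 41.0 and 39.8 CPM against 37.3, 33.1 and 34.2 CPM (-0.21, adjusted p = 0.097). CCNE2 and CDK2, a cyclin and its kinase, which phosphorylates NPAT, fell (-1.93 and -1.40), as did CSTF2 and CPSF3, of the 3′ cleavage machinery (-1.82 and -1.06). The genes that rose included TUT7, a uridylyltransferase that marks histone mRNA for decay (55.8 ± 1.81 to 91.2 ± 7.14 CPM, 0.71, adjusted p = 4.0e-05), HINFP, a transcription factor of H4 genes (0.57), ZNF473, a component of U7-dependent processing (0.59), and CTIF, a translation factor that binds SLBP (0.42). Of these factors 6 were called higher, in place of 5, with upper-quartile factors, 4 with DESeq2, and 3 with no filter and without control replicate 1, control replicate 2 or indomethacin replicate 2.

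Of 24 histone chaperones and their partners, which carry histones to and from DNA, 17 fell, 1 rose and 6 did not pass the test, with a median of -1.03. For all genes tested the shares were 31.0% lower and 30.6% higher. ASF1B, a carrier of newly made H3 and H4, stood at 27.7, 21.8 and 29.7 CPM and fell to 2.33, 1.49 and 1.74 CPM, 14.1-fold lower (log2 fold change -3.82, adjusted p = 2.0e-09). ANP32E, which removes H2A.Z, RBBP7, a histone-binding protein, and CABIN1, of the H3.3 chaperone complex HIRA, fell (-1.88, -1.85 and -1.83). UBN1, another subunit of the HIRA complex, rose from 38.8 ± 3.37 to 61.9 ± 2.1 CPM (0.68, adjusted p = 8.2e-05). The 16 DNA synthesis genes tested all fell, against 31.0% of all genes tested, with a median of -2.59. MCM3, MCM2 and MCM6, of the replicative helicase, had log2 fold changes of -2.79, -2.87 and -3.04, and PCNA, the sliding clamp of DNA polymerase, stood at 318, 254 and 291 CPM against 56.8, 49.4 and 60.1 CPM (-2.38). The part of the share of cells in S phase in the histone values was not tested. Among the genes of the comparison lists named here, exons of H2AC15, H2BC18, H3C14, H3C15, H4C14, H4C15, H1-10, H2AZ1, MACROH2A2, H3-3A, H3-3B, CCNE2, CDK2, ZNF473, ASF1B, RBBP7, UBN1 and MCM2 overlap a gene on the opposite strand and those of CENPA a gene on the same strand. How the counting treated strand is not given in the sources used here, so reads of such partners may be mixed.

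**Figure D5:**
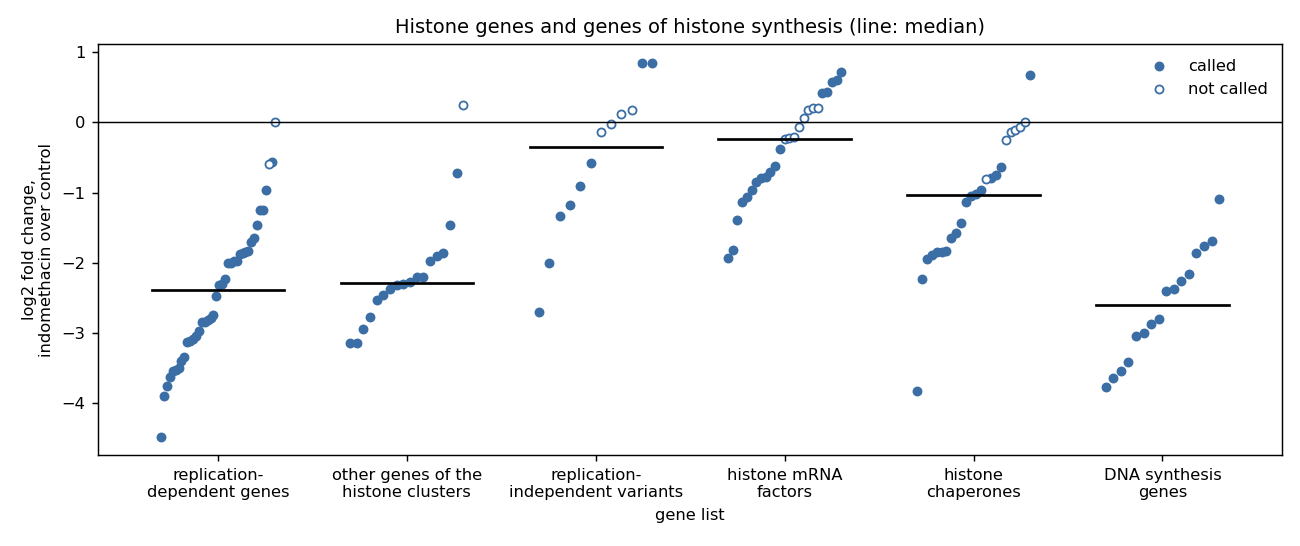
Log2 fold change (indomethacin over control) of each gene tested in 6 gene lists, ordered within each list; filled symbols passed the test, open ones did not, and lines are medians. The replication-dependent genes (median -2.39), the other genes of the clusters (-2.29) and the DNA synthesis genes (-2.59) lie lowest, while histone variants and mRNA factors spread to both sides of 0.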

How the data were processed

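Libraries were made from total RNA with a stranded kit after removal of ribosomal RNA, per the labels' protocols. The tools named per the submitters' processing notes are bcl2fastq, FastQC 0.11.7, cutadapt 1.16, HISAT2 2.1.0, SAMtools, featureCounts and DESeq2, with build hg38. The deposited tables hold the authors' raw counts per gene and library, with exon coordinates, strand and length, per the file headers. How the counting treated strand and reads with several alignments, and which annotation release was used, are not given in the sources used here.

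The counts were used as deposited. The line of 1 gene was broken in each table, so 3 of 60607 lines were left out, leaving 60604 genes; 42027 of them had a symbol in the reference table of names. Intervals and floors of 3 counts cover counting error only. In edgeR 4.0.16 (R 4.3.3), filterByExpr kept 17200 genes, library sizes were scaled with TMM factors, and a quasi-likelihood test on group alone was made for each gene. Its p-values were adjusted over these 17200 genes by the Benjamini-Hochberg method and called under 0.05. Levels are CPM, with mean ± SD (n = 3). Alternatives were DESeq2 1.42.0, limma-voom (limma 3.58.1), RLE and upper-quartile factors, library sizes without mitochondrial genes, other filters, a block for replicate number, and leaving out 1 replicate at a time. The fits were also tested on simulated data. Replicates differed by more than sampling noise.

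The 42 genes and the comparison lists were chosen with earlier results of these data known, so lists are described by counts and medians and no test was made over a list. Genes were described by a rule. In each class it took the gene highest per kilobase and those with the lowest and highest log2 fold change, and it added genes not called lower and genes outside chromosome 6. From each other list it took up to 4 genes with the smallest adjusted p and up to 4 called against the list's direction, and always SLBP, NPAT, H2AX, H2AZ1, H3-3A and H3-3B, beside 1 gene that is not reported here. Other genes are given with their fold change alone, or were chosen after their values were seen. Transcript sequences came from GENCODE 29 and promoter windows from RefSeq (GRCh38.p14), from which no site was inferred.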

Additional observations from a re-analysis of the deposited data

How the results depend on the processing

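Over 14 other fits (other tests, scalings, filters, a block, and a replicate left out), 37 of the 38 genes that fell were called lower in each; the exception, H4C9, is given in the report. The number of listed genes called lower was 37 or 38, and their median log2 fold change ran from -2.56 to -2.28, or from -2.60 to -2.32 with a replicate left out; with H4C12 counted once with H4C11, a choice made after seeing the data, it was -2.47 over 39 genes. H2AC17, not called under any alternative, changed sign with RLE factors (-0.00128), with library sizes without mitochondrial genes (-0.00106), with no filter (-0.0957) and with a replicate left out (lowest -0.180, without control replicate 3, and also -0.0571 without control replicate 1 and -0.0522 without indomethacin replicate 2). The number of histone variants called higher, 2, was 1 with limma-voom, 1 with no filter, 3 with upper-quartile factors and 1 to 2 with a replicate left out. The number of histone mRNA factors called higher, 5, was 3 with no filter, 4 with DESeq2, 6 with upper-quartile factors and 3 to 5 with a replicate left out. The cause of these shifts was not tested. Upper-quartile factors moved the median of all genes from 0.04 to 0.16, with 4686 called lower and 6124 higher in place of 5327 and 5264, and with no filter it was 0.20. Same-numbered libraries of the groups did not deviate together (correlations 0.03, 0.00 and 0.18), so the numbers were not taken as pairs; with the replicate block 38 listed genes were called lower, with a median of -2.40, and 5352 and 5249 of all genes lower and higher. H3C4 and H4C6, with 0 to 2 counts per library, were too low for a change to be detectable. For H3C4 the overlap with another gene and the shared coding sequence given above also bear on its count, whatever the depth.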
